A study of Mus musculus with 2 samples.

Results

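The 8 genes described here, Stat2, Usp18, Ifit3, Ifi44, Oas1a, Psmb9, Tap1 and Cxcl9, serve the interferon response and the processing of antigens. They were taken by gene symbol from the authors' deposited comparison of the diets, in which each has 1 probe set, out of 1625 listed probe sets and 1559 named genes. The signals of those probe sets were then read from the arrays, which hold 22690 probe sets each. The material was jejunum of male C57BL/6J mice, which entered the study at an age of 4 weeks, had 2 weeks to acclimate and were 10 weeks old at the end. For 4 weeks the control group ate regular chow (AIN76) and the other group HGD, a diet with 20% glucose. Each diet is represented by 1 array of total RNA, with the number of mice behind it not given in the sources used here. No difference below therefore has a replicate error or a test, and diet cannot be told apart from variation between animals or hybridisations.

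Interferons are secreted proteins that warn cells of infection. Their receptors activate STAT proteins, which bind short promoter elements and switch on antiviral genes, the machinery that cuts and loads peptides for class I presentation, and chemokines that draw in T cells. In the small intestine this programme is active at a low level in healthy animals and is strongly inducible in the epithelium and in resident immune cells.

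In the authors' deposited table, 7 of the 8 genes had a lower value on the high-glucose diet and Tap1 was listed higher. In the array signals, taken relative to the general difference between the arrays, Usp18 and Oas1a were more than 2-fold higher on the high-glucose array, and the other 5 genes with a measurable ratio lay within 1.5-fold of that difference. Without this correction Usp18 and Oas1a were 1.36-fold and 1.32-fold higher. The other 5 were then lower, with Stat2, Psmb9 and Cxcl9 at least 2-fold lower. Without the correction, 47.7% of all probe sets counted as expressed, as defined below, were also at least 2-fold lower. In whole tissue, fewer cells of a type and less RNA per cell cannot be told apart. Both sources are deposited for the same pair of diets, but the sources used here do not give whether the table was computed from these 2 arrays. Their values are therefore set side by side, and neither checks the other. The table's value is the signal log ratio (SLR), the log2 of high glucose over control. Its direction is taken from the table's title.

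**Figure D1:**
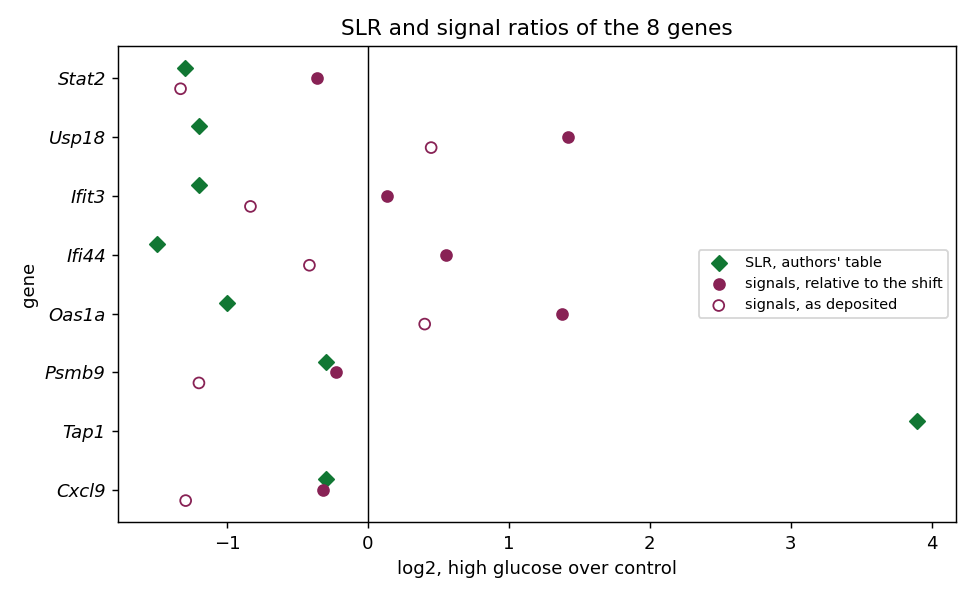
For each of the 8 genes, the SLR of the authors' deposited table (diamonds), the log2 ratio of the signals relative to the array-wide shift (filled circles) and the log2 ratio as deposited (open circles), high glucose over control. The SLR lies below 0 for 7 genes, while Usp18 and Oas1a lie to the right of 0 by both signal ratios. Tap1 has no signal ratio, and each point is a comparison of 1 array with 1 other, with no error bar.

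Promoter sequence is shown first, since it differs among the genes. The choice of symbols did not use the sequence, but it was made for a part in the interferon response. Matches to interferon elements are therefore a description and no result about the diets. RefSeq windows of 250 bases before to 50 bases after the start site were at hand for 7 of the 8 genes on GRCm38.p6, all but Usp18. They were searched on both strands for the core of the interferon-stimulated response element (ISRE), the site of STAT2-containing complexes and interferon regulatory factors, read as GAAA, any 2 bases, GAAA. They were also searched for the interferon gamma activated site (GAS, a site bound by STAT proteins), read as TTC, any 3 bases, GAA. The ISRE core was found in the windows of Stat2, Ifit3 and Oas1a. Of all 32851 RefSeq windows of this length, 3.44% hold it. A shorter ISRE core without the first G, chosen after the sequences had been read, was also found in Ifi44, and 10.6% of all windows hold that form, every longer match included. The 60-base stretches with these matches follow on each gene's own strand, with the matched bases in capitals.

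Stat2, chr10:128270250-128270309, plus strand: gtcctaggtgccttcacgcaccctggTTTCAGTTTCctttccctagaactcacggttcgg
Ifit3, chr19:34583364-34583423, plus strand: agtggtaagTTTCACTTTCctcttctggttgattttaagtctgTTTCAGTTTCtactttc
Oas1a, chr5:120907526-120907585, minus strand: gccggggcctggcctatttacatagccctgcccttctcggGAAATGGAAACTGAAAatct
Ifi44 (shorter core), chr3:151749932-151749991, minus strand: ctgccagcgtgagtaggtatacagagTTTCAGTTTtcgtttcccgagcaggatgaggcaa

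Ifit3 holds 2 separate cores, and Oas1a holds 2 that overlap within 20 bases of its start site. In Stat2, Ifit3 and Ifi44 the match lies on the strand opposite to the gene. The single GAS match among the 7 windows is that of Oas1a, and 8.3% of all windows hold one. The windows of Cxcl9, Psmb9 and Tap1 hold neither letter pattern. Nor did any of the 7 windows hold the kappa B site, read as GGGRNNYYCC (R for A or G, N for any base, Y for C or T). Of all windows, 8.46% hold that pattern. Looser forms of it were not searched. These are matches of letters and not measured binding, and a window without a match says nothing about sites elsewhere.

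Psmb9 and Tap1 stand head to head on chromosome 17. Their start sites are 226 bases apart on opposite strands, and their promoter windows share 275 bases. The sequence between the start sites is shown because the genes start at its ends, Tap1 to the right and Psmb9 to the left. Capitals mark the GC box (GGGCGG on either strand, a motif chosen after the sequence had been read), which 35.7% of all windows hold.

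Between Psmb9 and Tap1, chr17:34187331-34187555, GRCm38.p6, plus strand: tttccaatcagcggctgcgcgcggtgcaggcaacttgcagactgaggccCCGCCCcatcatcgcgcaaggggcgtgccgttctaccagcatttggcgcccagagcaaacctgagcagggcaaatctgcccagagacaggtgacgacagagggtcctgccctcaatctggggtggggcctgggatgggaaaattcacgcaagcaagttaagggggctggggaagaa

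**Figure D2:**
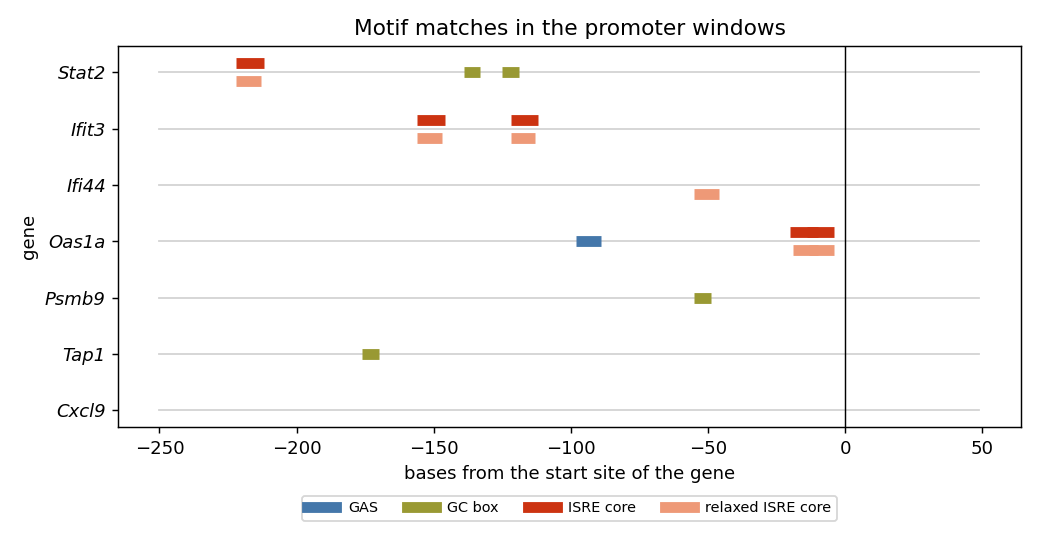
Motif matches along the RefSeq promoter windows of 7 genes, plotted as bases from each gene's start site (horizontal axis). Each coloured bar is a match on either strand. The ISRE core (red) is found in Stat2, Ifit3 and Oas1a, the shorter core (light red) also in Ifi44, the GAS (blue) in Oas1a, and the GC box (olive) in Stat2, Psmb9 and Tap1, while Cxcl9 has no match.

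The SLR was -1.0 or lower for Ifi44, Stat2, Usp18, Ifit3 and Oas1a, and nearest to 0 for Psmb9 and Cxcl9. In the authors' deposited table, 7 of the 8 genes had an SLR below 0, against 64.0% of all listed probe sets, and the median of the 8 was -1.1 against -0.4 for the whole table. An SLR of -1.0 or lower, which is at least 2-fold lower, was listed for 5 of the 8 genes, for 9.85% of all listed probe sets and for 10.1% of all named genes. The authors chose the rows of this table by an unstated rule, so these counts only describe listed values.

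The gene for the interferon-induced protein Ifi44 had the lowest SLR of the 8, at -1.5, and 65 of the 1625 listed probe sets were as low or lower. Stat2, the STAT partner that carries type I and type III interferon signals to the nucleus, followed at -1.3 in the authors' deposited table. Usp18, a protease that removes the ubiquitin-like protein Isg15 and blunts signalling at the type I receptor, and Ifit3, of the interferon-induced family with tetratricopeptide repeats, both stood at -1.2. Oas1a, of the oligoadenylate synthetases that answer double-stranded RNA by activating RNase L, stood at -1.0. Of these genes, Stat2, Ifit3 and Oas1a hold the ISRE core. Ifi44 holds only the shorter form, which was chosen after the sequences had been read, and the window of Usp18 was not at hand. A link between the core and the SLR was not tested.

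Psmb9, the immunoproteasome subunit that changes which peptides are cut for class I presentation, and Cxcl9, a chemokine induced by interferon gamma that attracts T cells, both stood at -0.3 in the authors' deposited table. That is close to the middle of the table, where 992 of 1625 probe sets were as low or lower. Tap1, a subunit of the pump that carries peptides into the endoplasmic reticulum, stood at 3.9 in the authors' deposited table. Both signals of that Tap1 probe set lie under the floor defined below, so its SLR is not set against that of Psmb9.

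The signals gave other values. MAS5, the Affymetrix method that condenses a probe set into 1 number, gave a median signal of 13.1 for the control diet and 7.9 for the high-glucose diet. Signals under a floor of 2.9 were set to it, and probe sets were called expressed if the mean of their log2 signals reached the median over all 22626 probe sets other than controls. The median log2 ratio of the 11315 expressed probe sets was -0.97, and this array-wide shift, a 1.96-fold lower signal on the high-glucose array, was taken off each gene's ratio. The result is called the relative log2 ratio. Only 5.28% of expressed probe sets had a higher signal on the high-glucose array before the shift was taken off. Of the 8 genes, 7 counted as expressed by their listed probe set, and Tap1 did not. Further probe sets of these genes on the arrays could not be named. The call for Tap1 thus describes that probe set and not the gene as a whole.

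Against the label of jejunum, the markers that could be read on these arrays were uneven. Markers that the authors' deposited table does not name could not be read. Of 6 named Paneth and goblet cell genes 1 counted as expressed, Tff3, with signals of 50.4 (control) and 25.7 (high glucose). It stood at percentiles 75.1 and 76.3. The Paneth cell lysozyme Lyz1 read 5.4 (control) and 4.6 (high glucose). All 6 had an SLR above 0, from 0.6 to 1.0 in the authors' deposited table. Of 8 enterocyte genes on the list, 3 were named, and all 3 counted as expressed. Fabp2 had signals of 455.3 and 557.9, Anpep 64.5 and 31.5 and Mep1a 7 and 13, and their SLRs were 0.7, -0.4 and 0.9. The 6 smooth muscle genes were all listed above 0, from 0.8 to 1.3, and 2 of them counted as expressed, Acta2 and Tagln. The summed signal of the 6 was 46.0 (control) and 30.1 (high glucose). Its fall came from Acta2, at 26.4 and 4.6, with a relative log2 ratio of -1.55. Tagln lay the other way, at a relative log2 ratio of 0.90, from a ratio as deposited of -0.07. Of the genes not counted as expressed, Actg2, Cnn1 and Des read higher on the high-glucose array and Myh11 lower. The signals of these genes thus went in both directions.

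Of 8 liver-typical genes on the list, 2 were named, Plg and Serpina1a. Plg and Serpina1a lay above percentile 99 on both arrays. Plg, with signals of 3968.3 and 1994.0, had an SLR of 4.2, while that of Serpina1a was 1.2. The 4 named pancreatic acinar genes, of 8 on the list, summed to 3751 with the control diet and 87.8 with the high-glucose diet. In the authors' deposited table Cela3b and Try4 were listed at -0.8 and -1.3 but Rnase1 and Clps at 0.6 and 1.2, although the signals were 418.3 and 12.6 for Rnase1 and 261.3 and 4.7 for Clps. For these genes too, the table and the signals thus gave different values. The part of these cells in the values of the 8 genes was not tested.

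For Usp18 the control array read 43.3 and the high-glucose array 59.1. For Oas1a the control array read 27.0 and the high-glucose array 35.7. Of the 7 genes above the floor, these 2 had a higher signal on the high-glucose array as deposited, and the others were lower there. Usp18 had a relative log2 ratio of 1.42, or 2.68-fold, and 1.71% of expressed probe sets were as high or higher. Oas1a had a relative log2 ratio of 1.37, or 2.59-fold, with 1.93% of expressed probe sets as high or higher. For both genes the SLR and the signals lay on opposite sides of 0 with or without the shift.

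Position among all probe sets of an array needs no scaling, but it is drawn from the same signals. By position, Oas1a and Usp18 moved up most. Usp18 stood at percentile 72.8 of the control array and 86.7 of the high-glucose array. Oas1a stood at percentile 64.6 and 81.0. Next came Ifi44, at percentile 55.7 and 62.7. Close relatives of Oas1a exist in the mouse genome, and the sources used here do not give which of their transcripts its probe set reads.

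For Ifi44 the control array read 17.2 and the high-glucose array 12.9, which gives 0.56 relative to the shift on the log2 scale. For Ifit3 the control array read 65.4 and the high-glucose array 36.7, which gives 0.14 relative to the shift on the log2 scale. Both genes were thus lower with the high-glucose diet as deposited, at log2 ratios of -0.42 and -0.83, and above 0 once the shift was taken off, so their sign depends on the scaling. Both had an SLR below 0.

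For Stat2 the control array read 18.6 and the high-glucose array 7.4, which gives -0.36 relative to the shift on the log2 scale. On the high-glucose array this lay just under the middle of all probe sets, at percentile 48.2, after 57.4 on the control array. Its ratio as deposited was -1.33 on the log2 scale, beside an SLR of -1.3. Stat2 was the lowest of the 7 genes relative to the shift, and 24.5% of expressed probe sets were as low or lower.

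For Psmb9 the control array read 82.2 and the high-glucose array 35.8, which gives -0.23 relative to the shift on the log2 scale. For Cxcl9 the control array read 144.6 and the high-glucose array 59.0, which gives -0.32 relative to the shift on the log2 scale. Both genes were among the brighter probe sets of either array, Cxcl9 at percentiles 88.1 and 86.7 and Psmb9 at 82.1 and 81.0. Their ratios as deposited were -1.20 and -1.29 on the log2 scale, beside an SLR of -0.3 for each. The SLR thus lay nearer to the relative ratio for Psmb9 and Cxcl9 and nearer to the ratio as deposited for Stat2, and neither scaling came close to it for all 3 genes.

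For Tap1 the control array read 0.1 and the high-glucose array 0.3. Both values lie far under the floor of 2.9, at percentiles 0.175 and 3.73, so no ratio is given for it. The SLR of 3.9 listed for this probe set thus has no counterpart in the signals. Such high values were listed for 6.4% of the table, 104 probe sets with an SLR of 3 or more, of which 28 (26.9%) had both signals at or under the floor and 12 counted as expressed. Over the whole table, 111 of 1625 probe sets (6.83%) had both signals at or under the floor and 1110 counted as expressed.

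**Figure D3:**
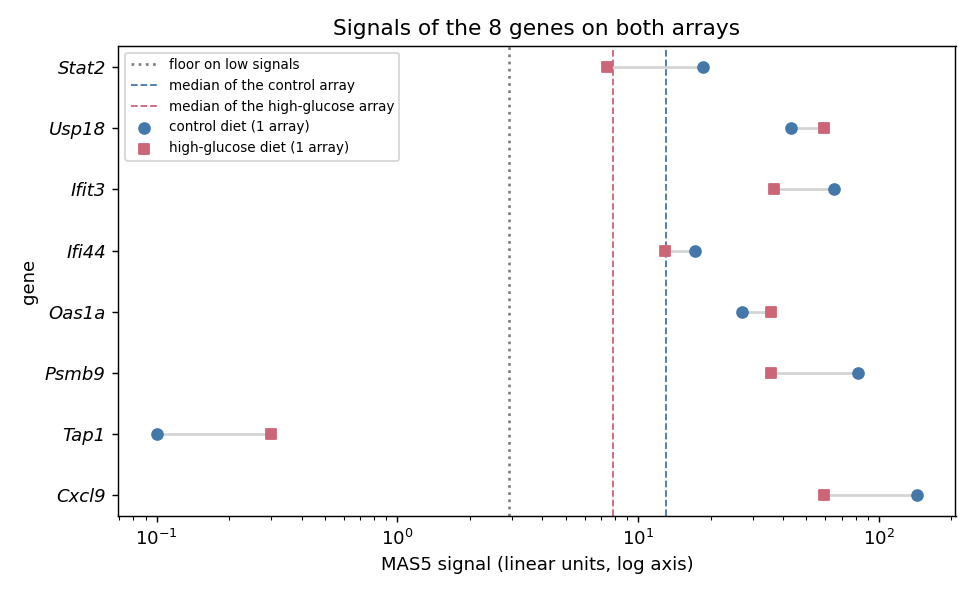
MAS5 signal of the 8 genes (horizontal axis, log scale) on the control array (blue circles) and the high-glucose array (red squares), with the median of each array dashed and the floor of 2.9 dotted. Usp18 and Oas1a are further right on the high-glucose array, 5 genes are further left, and both Tap1 values lie under the floor.

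Counted together, 4 of the 7 measured genes lay above the shift and 3 below it, where by construction as many expressed probe sets lie above as below it. At least 2-fold higher were 2 of the 7, against 4.92% of expressed probe sets and 4.32% of the 7413 with a mean signal within the range of these genes. At least 2-fold lower were 0 of the 7, against 4.97%. The other 5 lay within 1.5-fold of the shift, a limit that 29.0% of expressed probe sets pass in one direction or the other. The median of the 7 relative log2 ratios was 0.14 beside 0 for expressed probe sets. As deposited the split was 2 higher and 5 lower, with 3 of them, Stat2, Psmb9 and Cxcl9, at least 2-fold lower. Of expressed probe sets, 47.7% were at least 2-fold lower as deposited. No test applies to any of these counts.

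**Figure D4:**
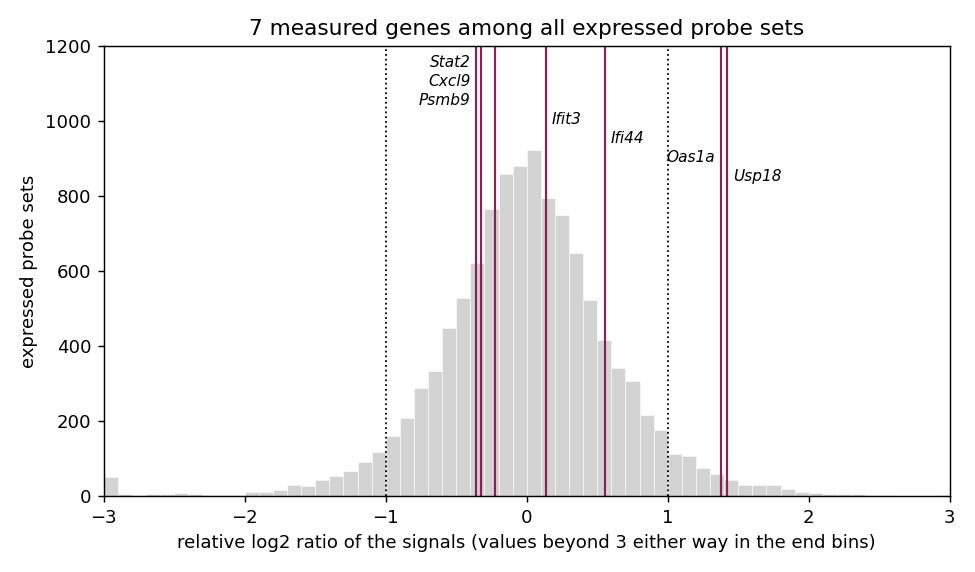
Number of expressed probe sets (vertical axis) by relative log2 ratio of their signals (horizontal axis, bins of 0.1), with the 7 measured genes as vertical lines and the 2-fold marks dotted. Stat2, Cxcl9, Psmb9, Ifit3 and Ifi44 lie within the bulk, and Oas1a and Usp18 lie beyond the upper 2-fold mark.

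Other genes of the pathway were taken from lists of receptors and STATs, interferon regulatory factors, antiviral effectors, feedback inhibitors, class I and class II presentation and chemokines. Of 111 genes on these lists, 44 are named in the table. In the authors' deposited table, 42 of the 44 had an SLR below 0, against 65.1% of all named genes, with a median of -0.65. Without the 8 genes it was 35 of 36, with a median of -0.6. By signal, 15 of the 28 other expressed genes lay above the shift, against 49.6% of expressed named genes, and their median relative log2 ratio was 0.06. Of these 28, 7 were higher by 1.5-fold or more and 5 lower by as much, where each direction holds 13.7% of expressed named genes. As deposited, 1 of the 28 had a higher signal on the high-glucose array, against 4.22%.

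All 20 named antiviral effectors, Ifit3, Ifi44 and Oas1a included, had a negative value in the authors' deposited table (median SLR -1.0). The lowest was the RNA sensor Dhx58 at -2.1, followed by the oligoadenylate synthetases Oas3 at -1.6 and Oas2 at -1.4, on either side of Ifi44. By signal, 12 of the 17 expressed effectors, the same 3 genes included, lay above the shift, against 49.6% of expressed named genes. Their median relative log2 ratio was 0.28. As deposited, 1 of the 17, Oas1a, had a higher signal on the high-glucose array, against 4.22% of expressed named genes. After Oas1a the highest were the nucleotide hydrolase Samhd1 at 0.83, the nucleic acid sensor Zbp1 at 0.82 and Oasl2 at 0.65. On the control array and then the high-glucose array, signals were 13.8 and 12.5 for Samhd1, 22.4 and 20.2 for Zbp1 and 12.0 and 9.6 for Oasl2. Oas2 stood at -0.11, and Dhx58 and Oas3 did not count as expressed. Oas1a was past 2-fold relative to the shift, and its expressed relatives Oas2, Oasl1 (at 0.53) and Oasl2 were not.

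Around Stat2, other signalling genes were read too. Stat3 stood at -0.94 and the receptor chain Il10rb at -0.92 relative to the shift, with SLRs of -0.3 and -0.4 in the authors' deposited table. Irf7, the regulatory factor that amplifies interferon production, had a relative log2 ratio of -0.02 and an SLR of -0.9, as low as that of Irf5, while Irf4 stood at -0.7 in the authors' deposited table. Irf5 and Irf4 did not count as expressed. Beside Usp18, the feedback inhibitor Socs3 lay the other way, at a relative log2 ratio of -1.03 from signals of 45.2 and 11.3, and the phosphatase Ptpn6 at -0.11. In the authors' deposited table Socs3 and Ptpn6 were listed at -0.5 and -0.6.

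Beside Psmb9 and Tap1, the partner pump subunit Tap2 gave signals of 14.5 (control) and 12.4 (high glucose), which is 0.75 relative to the shift on the log2 scale, and the authors' deposited table gives -0.4 for it. The loading factor Tapbp lay at 0.04 by its brighter probe set and the chaperone Calr at -0.82 relative to the shift. B2m, the light chain of class I molecules, stood at -0.7 in the authors' deposited table from a probe set with signals of 4.1 and 7.4 that did not count as expressed. Of the standard proteasome core, Psmb3 and Psmb1 were named, with SLRs of 0.5 and 0.4, both above 0 where Psmb9 was below it. By signal, Psmb3 had a relative log2 ratio of 0.33, and Psmb1, with signals of 6.2 and 6.7, did not count as expressed.

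Of class II genes, H2-Oa was higher at a relative log2 ratio of 1.54, from signals of 8.9 and 13.2. Its control signal lay under the middle of that array, at percentile 42.0, and its high-glucose signal at percentile 63.3. H2-Ab1 stood at 0.73, while H2-DMa lay below the shift at -0.34, from signals of 34.3 and 13.8. The SLRs of H2-Oa and H2-Ab1 were -0.7 and -0.3, and those of H2-DMa and the regulator Ciita -0.4 and -1.0, in the authors' deposited table. Ciita, with signals of 5.4 and 1.6, did not count as expressed. Beside Cxcl9, the B cell chemokine Cxcl13 was listed at -2.1 with a relative log2 ratio of 0.45. Ccl8 was listed at 0.7 with signals of 9.1 and 0.9, and did not count as expressed.

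**Figure D5:**
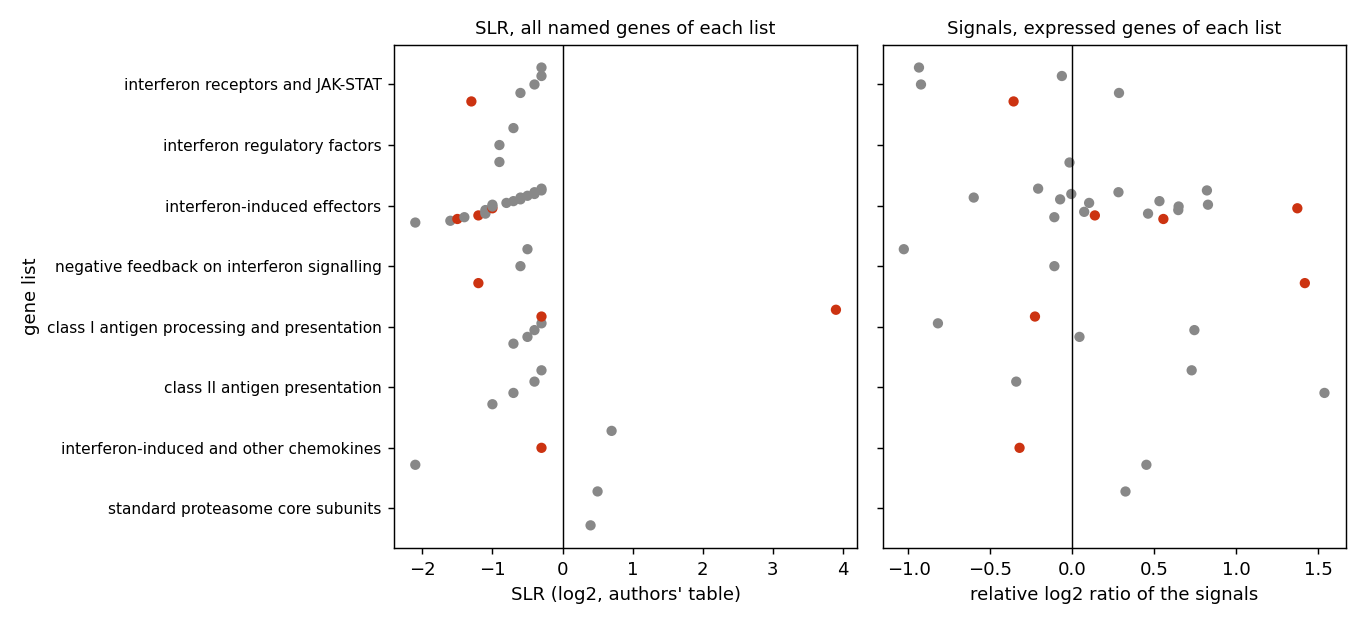
SLR of the authors' deposited table for all named genes of 8 lists (left) and relative log2 ratio of the signals for the expressed ones (right), with the 8 genes of this report in red and other genes in grey. The vertical offset within a list only separates points. Nearly all SLRs lie left of 0, with Tap1 at 3.9 as the far exception, while the signal ratios spread to both sides and Usp18 and Oas1a lie far to the right.

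Markers of immune cells that could carry these genes were read in the same way. Of B cell markers 7 of 7 were named, with SLRs from -5.5 to -1.6 in the authors' deposited table, and none counted as expressed. Their summed signal was 26.4 with the control diet and 18.7 with the high-glucose diet, with Cd22 at 0.3 and Ighm at 0.2 on both. Of T and NK cell markers only Lck was named (1 of 9), with an SLR of -0.7 and signals of 11.1 and 8.7, and of macrophage and dendritic cell markers only Itgax (1 of 8), at -0.8 with signals of 7.3 and 3.5. The part of these cells in the values of the 8 genes was not tested.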

How the data were processed

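The members and lists were chosen with earlier results of these data known. Of the 2 deposited sources, the first holds intensity values that the authors made with MAS5, per the submitters' processing notes, with no version or scaling target given. The other is the authors' deposited comparison, with SLR values on the log2 scale, per the file headers, with a signed fold change score computed from them that was not used. Named genes came only from that table, updated through RefSeq symbols of GRCm38.p6. From the signals were computed the floor (mean of the arrays' 25th percentiles), the filter, the shift and the relative log2 ratio, with pandas 2.3.3 and numpy 2.4.6. A gene with several probe sets was represented by the brightest. With 1 array per diet no test was possible, and the number of arrays limits the precision. Named beside the members are, per list, up to 4 expressed genes with a relative ratio of at least 1.5-fold and up to 4 with the largest SLR. Oasl1 and the cell type markers lie outside this rule and were named after their values were seen. With 2 arrays, no gene was named for a pattern like a member's. Alternatives were 4 other scalings, centring on either kind of spike, no shift, 2 floors, 2 filters, thresholds of 1.5-fold and 3-fold, probe set means and the SLR. Setting the floor after scaling was an alternative chosen with the data in view. The steps were tested on simulated data with known changes. One gene of the lists is not reported here by name.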

Additional observations from a re-analysis of the deposited data

How the results depend on the processing

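The count of measured genes above the shift, 4 of 7, was 2 of 7 both as deposited and after centring on the hybridisation spikes (whose own median log2 ratio was 0.12), and 1 of 8 by SLR. It was 3 or 4 under the other scalings, floors and filters. After centring on the poly-A spikes, whose own median log2 ratio was -0.93, it was 4. The count past 2-fold, 2 of 7, was 0 at a threshold of 3-fold. It was 3 as deposited and with the hybridisation spikes, but these were 3 lower genes with 0 higher, in place of 2 higher. Of expressed probe sets, 47.7% were at least 2-fold lower as deposited and 57.5% with the hybridisation spikes. Over the 13 alternatives, Usp18 ranged from 0.33 to 1.52 and Oas1a from 0.28 to 1.44, above 0 in each, while Stat2, Psmb9 and Cxcl9 were below 0 in each. Ifi44 was above 0 in 11 and Ifit3 in 9. Averaging probe sets changes nothing by construction, since each gene has 1 named probe set. No paired analysis was possible because there is 1 array per diet. Signals near the floor, such as those of Tap1, carry no ratio.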

Other observations

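Named genes of the authors' deposited table were also split by whether their RefSeq promoter window holds the ISRE core or the GAS, splits chosen after the data had been seen. Apart from Stat2, Ifit3 and Oas1a, 55 named genes held it. An SLR of -1.0 or lower was listed for 8 of them (14.5%) and for 109 of 1123 genes without it (9.71%), beside 10.1% of all named genes, and the median SLR was -0.4 in each group. By signal, 26 of 42 expressed genes with the core lay above the shift (61.9%), against 379 of 777 without it (48.8%), with median relative log2 ratios of 0.10 and -0.02. For the GAS, an SLR of -1.0 or lower was listed for 15 of 98 genes with it other than Oas1a (15.3%) and for 104 of 1082 without it (9.61%), and 43.5% against 49.9% of the expressed ones lay above the shift. At this limit of -1.0, the gap in SLR was no smaller for the GAS than for the ISRE core. The shares with an SLR below 0 differed otherwise. Leaving out the same genes, they were 69.1% with the ISRE core and 66.7% without it. For the GAS they were 62.2% with it and 67.3% without it. These are shares of genes on 1 pair of diets, with no test.

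A gene of these lists with more than 1 named probe set gives the only repeat within an array. Tapbp had a brighter probe set that read 201.4 (control) and 105.9 (high glucose), 0.04 relative to the shift on the log2 scale, and a dimmer one that read 40 and 15.4, at -0.41. Their SLRs in the authors' deposited table were -0.5 and -0.7.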
